A study of Homo sapiens with 12 samples.

Results

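The genes considered here are 9 genes chosen by name, the SR protein kinases CLK1, CLK2, CLK3, CLK4, SRPK1 and SRPK2, the SR-like splicing factors TRA2A and TRA2B, and SON, a scaffold protein of nuclear speckles. They are 9 of the 61860 genes and hold 137 of the 251121 transcripts in a table of RNA-seq counts from 12 libraries. The cells were human embryonic kidney (HEK293) Flp-In T-REx lines, each a selected stable line with its transgene at one FRT site, in which doxycycline (1 µg/ml for 6 days) induces miRNAs against endogenous PGC-1α together with an miRNA-resistant FLAG-PGC-1α, either wild type (WT-res) or without the RS domain (ΔRS-res). Both lines therefore carry the depletion and the induction, and 1 line stands for each form. Whole-cell RNA and RNA of the cytoplasmic fraction were sequenced after ribosomal RNA removal from 3 consecutive passages of each line, which gave 4 groups of 3 libraries. Counts were compared between cytoplasmic and whole-cell RNA, per transcript, per class of transcript and per gene, and then between the lines.

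SR proteins bind exons through RNA recognition motifs and carry serine/arginine (RS) repeats whose phosphorylation sets where they are and what they do. SRPK1 and SRPK2 phosphorylate RS domains mainly in the cytoplasm, which lets SR proteins enter the nucleus, and the CLK kinases phosphorylate them further in the nucleus and release them from speckles. Several of these genes are known to control their own splicing. CLK transcripts can stay in the nucleus with unspliced introns, called detained introns, and TRA2 proteins promote inclusion of a poison exon, an exon with a premature stop codon, in their own transcripts. A detained intron differs from other retained introns in that the polyadenylated transcript waits in the nucleus and is not translated.

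The libraries held between 90333190 and 144628005 counts. PPARGC1A, the gene of PGC-1α, counted over the endogenous and the introduced copies together, lay between 487 and 682 CPM (counts divided by the library total and scaled) in libraries labelled WT-res and between 296 and 486 in ΔRS-res. One WT-res library, labelled as replicate 3 of whole-cell RNA and called the doubted library from here on, went against its label. It had 21 counts of DDX19B, against 1140 to 2059 in the other WT-res libraries and 27 to 45 in ΔRS-res, and its PPARGC1A level of 487 CPM was next to that of ΔRS-res whole-cell replicate 3 (486). It was kept under its label, and results that rest on it are also given without it. The nuclear RNAs NEAT1 (207 to 328 CPM in whole-cell, 74.8 to 129 in cytoplasmic RNA) and KCNQ1OT1 (21.1 to 28.6 against 6.21 to 8.94) were lower in every cytoplasmic library, while MALAT1 overlapped (1300 to 3080 against 993 to 1780), and MEG3 and SNHG14 were near 0 in both. Every cytoplasmic library had more RPLP0, EEF1A1 and GAPDH mRNA than any whole-cell library, and ACTB overlapped. VIM (760 to 1060 CPM) and NEFL (182 to 372) marked the HEK293 cells, PAX2 (2.79 to 5.81) and NEFM (0.258 to 0.694) were low, and PTPRC, ALB and PECAM1 did not pass 0.125 CPM. CD68 lay between 1.63 and 6.19 CPM.

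The 4 CLK genes have the same build around exon 4 in the GRCh38 annotation, and transcripts that retain intron 4 are listed for each of them. CLK1 lies on the minus strand of chromosome 2, with exon 4 at chr2:200860125-200860215 (91 bases) between intron 3 (chr2:200860216-200861237, 1022 bases) and intron 4 (chr2:200859747-200860124, 378 bases). CLK4, on the minus strand of chromosome 5, has an exon 4 of the same length at chr5:178617344-178617434, between introns of 1121 and 395 bases. In CLK3, on the plus strand of chromosome 15, exon 4 (chr15:74622120-74622216, 97 bases) lies between introns of 1894 and 277 bases, and in CLK2, on the minus strand of chromosome 1, intron 4 has 348 bases (chr1:155268360-155268707). The donor site of intron 4, the last 3 bases of exon 4 and the first 6 of the intron, is printed 5′ to 3′ with the invariant GT in capitals, since it is the site these transcripts leave unused.
CLK1 intron 4 donor: gatGTatag
CLK2 intron 4 donor: gatGTacaa
CLK3 intron 4 donor: gatGTacag
CLK4 intron 4 donor: gatGTatag

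All 4 donors started with gatGTa, letters that 504 of 105193 introns of other genes (0.479%) share at this place. Each had 4 matches with the 9-base consensus donor cagGTaagt. Donors with at most 4 matches made up 1.8% of introns of the other genes. In the 9 genes, they were 3 of the 13 introns that a retained_intron transcript holds whole (23.1%), which are intron 4 of CLK1, CLK3 and CLK4, and 3 of the other 91 (3.3%), a set that includes intron 4 of CLK2. The held introns were 86 to 1894 bases long, with a median of 515, against a median of 1184 for the other introns of these genes. A match to the consensus is a description of letters and not a measure of splicing.

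The acceptors on both sides of exon 4 are printed with the invariant AG in capitals, followed by the first 3 bases of the exon.
CLK1 intron 3 acceptor: cgcccacttgacgtttccAGaag
CLK4 intron 3 acceptor: ctgcccacttgccgttccAGaag
CLK3 intron 3 acceptor: tcggggggcggtgcatgcAGaga
CLK2 intron 3 acceptor: ccccccctgccccccgacAGcag
CLK1 intron 4 acceptor: gatttatttctctcttttAGatg
CLK2 intron 4 acceptor: cctgctctctttcatttcAGatg
CLK3 intron 4 acceptor: caatttcttttctctcctAGatg
CLK4 intron 4 acceptor: tttttccctcctcactctAGatg
The intron 4 acceptors carry the usual run of C and T before the AG. The intron 3 acceptors differ among the genes: that of CLK2 is nearly all C and T, those of CLK1 and CLK4 are interrupted by A and G, and that of CLK3 is rich in G. No transcript listed for CLK2 holds intron 3 whole.

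Transcripts of the CLK genes were sorted by their annotated exons into those that splice exon 4 in, those that hold intron 3 or 4 and those that skip exon 4. Shares were taken of the summed level per length of the transcripts sorted, and the rest were left out. In libraries made by ribosomal RNA removal, a detained intron and one not yet spliced cannot be told apart, here and in the comparisons below. The rest held 20.3 to 29.5% of CLK4 counts in whole-cell and 6.89 to 12.1% in cytoplasmic libraries, and 15.5 to 17.0% and 4.63 to 8.42% of CLK3 counts. In CLK1 they held 6.04 to 10.3% and 1.19 to 3.31%, and in CLK2 3.82 to 4.98% and 0.865 to 1.55%. In CLK1, transcripts holding intron 3 or 4 made up 39.8, 35.0 and 43.5% in WT-res whole-cell replicates 1 to 3 and 41.3, 38.0 and 48.4% in ΔRS-res. In the cytoplasm the shares were 10.5, 9.77 and 7.68% in WT-res and 7.66, 8.96 and 10.3% in ΔRS-res. All 6 whole-cell values were above all 6 cytoplasmic ones, and the lines overlapped within each fraction. The mean difference was -31.9 percentage points, and -30.8 without the doubted library. Exact permutation of the fraction labels within each line, without pairing, gave a two-sided p of 0.005, the smallest this permutation can give. Adjusted by Benjamini-Hochberg over 18 shares, this p was 0.0075. The fraction that spliced exon 4 in went the other way, from 34.8 to 54.8% in whole-cell RNA to 62.0 to 76.4% in the cytoplasm.

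The other CLK genes had the same order. Intron 3 or 4 was held by 28.1 to 39.8% (median 31.9) of CLK4 in whole-cell libraries and by 6.80 to 11.1% (median 9.80) in cytoplasmic ones. CLK2 went from 15.1 to 21.7% (median 19.5) to 3.35 to 6.80% (median 5.63), and CLK3 from 12.0 to 13.8% (median 12.9) to 2.43 to 4.36% (median 3.29). In CLK2 this state is 1 transcript, CLK2-207, which also holds introns 10 and 11 whole. Of the other transcripts in this state, CLK1-207 also holds intron 7 whole and CLK4-202 introns 11 and 12. The shares of these genes are therefore not those of introns 3 and 4 alone. The fractions did not overlap in any of the 4 genes, and the exact permutation p was 0.005 (adjusted 0.0075) in each. Mean differences were -22.6, -14.0 and -9.44 percentage points in CLK4, CLK2 and CLK3. Such shares were taken for the CLK and TRA2 genes only, so how often they separate in other genes is not known. Within a fraction the genes kept apart from each other in part, with CLK1 and CLK4 above CLK2 and CLK2 above CLK3 in every whole-cell library.

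In CLK1, skipping of exon 4 shifts the reading frame and is known to give a product without kinase activity. The share of skipped transcripts overlapped between fractions in 3 of the 4 genes. In CLK1 it was 10.2 to 21.7% in whole-cell and 13.1 to 27.7% in cytoplasmic RNA, a difference of 2.98 points (exact permutation p = 0.32, adjusted 0.384). Without the doubted library, which held the highest whole-cell value, it was 4.76 points (exact permutation p = 0.03, unadjusted). CLK2 (9.07 to 17.8 against 9.58 to 20.9%) and CLK4 (5.62 to 11.2 against 5.67 to 12.4%) differed by 2.44 and 0.525 points (exact permutation, adjusted p = 0.422 and 0.705). CLK3 was the exception, at 6.69 to 9.21% in whole-cell and 3.25 to 6.33% in cytoplasmic RNA, a difference of -2.56 points (exact permutation p = 0.005, adjusted 0.0075). This share rests on few counts, 133 to 230 in whole-cell and 69 to 255 in cytoplasmic libraries, and the counts themselves overlapped.

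**Figure D1:**
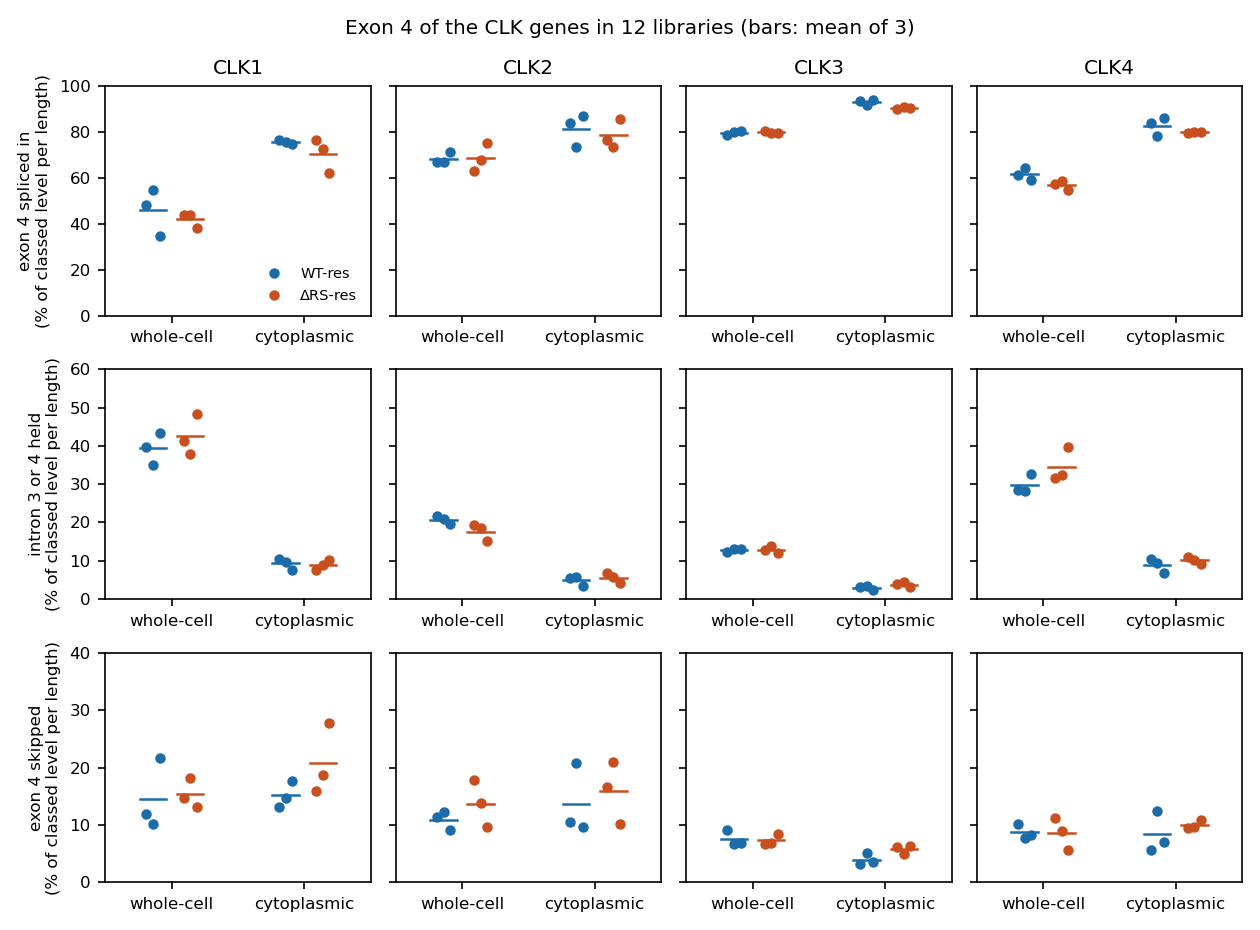
Share of transcripts of CLK1 to CLK4 with exon 4 spliced in (top), intron 3 or 4 held (middle) and exon 4 skipped (bottom), in percent of the level per length of the transcripts sorted. Points are libraries, replicates 1 to 3 from left to right, and bars are means of 3. In every panel of the middle row the cytoplasmic points lie below all whole-cell points, at 2.43 to 11.1% against 12.0 to 48.4%, while in the bottom row the fractions overlap in all genes but CLK3.

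The single transcripts behind these shares moved in opposite directions. Here and below, CPM of transcripts were scaled by factors from gene sums, while their log2 changes came from a fit scaled on transcript counts. The log2 changes therefore lie somewhat above those of the printed CPM, so that rises read larger and falls smaller. CLK1-201, the coding transcript of CLK1 (ENST00000321356), was at 11.9, 17.8 and 5.30 CPM in the WT-res and 5.70, 6.45 and 3.61 CPM in the ΔRS-res whole-cell libraries. In the cytoplasm it was at 23.3, 23.4 and 22.7 CPM in WT-res and 15.5, 16.0 and 8.77 CPM in ΔRS-res. The fractions overlapped, since all 3 ΔRS-res cytoplasmic values lay below WT-res whole-cell replicate 2, while within each line every cytoplasmic value was above every whole-cell value. The transcript was higher in the cytoplasm by 1.32 on the log2 scale (SE 0.276, edgeR adjusted p = 0.00336). CLK1-210 (ENST00000473565), which holds introns 3 and 4, went the other way, from 6.45 to 14.1 CPM down to 1.59 to 4.37 CPM (log2 change -1.60, SE 0.152, edgeR adjusted p = 2.0e-05). CLK1-207, which holds introns 4 and 7 whole, changed by -1.64 (SE 0.244). CLK1-204, which skips exon 4 and is listed as a decay substrate, was higher in the cytoplasm by 0.81 (SE 0.167, edgeR adjusted p = 0.00311), although its share of the gene overlapped.

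In CLK4 the coding transcript and the more abundant intron-retaining one also moved apart. CLK4-201, its coding transcript, rose from 4.80 to 9.30 CPM in whole-cell libraries to 10.9 to 14.9 CPM in the cytoplasm (log2 change 1.04, SE 0.0988), and CLK4-203, which holds introns 3 and 4, fell from 3.06 to 6.37 CPM to 0.600 to 1.35 CPM (-1.92, SE 0.208). CLK4-206, which holds intron 3 whole and not intron 4, ran the other way without passing the test. It was at 0 to 0.306 CPM in whole-cell and 0.467 to 1.48 CPM in cytoplasmic libraries, without overlap (2.70, SE 1.04, edgeR adjusted p = 0.0647), and is named here after its values were seen. In CLK3, CLK3-202 was higher by 0.60 (SE 0.112) and CLK3-226, with introns 3 and 4, was lower by a log2 change of -1.78 (SE 0.0981). CLK2-207 holds introns 4, 10 and 11 and is listed as a transcript without a defined coding sequence, so CLK2 has no transcript of the type retained_intron. It went from 10.1 to 15.6 CPM in whole-cell libraries to 1.97 to 3.34 CPM in the cytoplasm (log2 change -2.02, SE 0.127, edgeR adjusted p = 1.5e-06), a transcript chosen for its structure and not by abundance. The coding transcript CLK2-202 was at 17.7 to 24 CPM and 15.2 to 23.2 CPM, with a log2 change of -0.02 (SE 0.129) that did not pass the test and was positive with DESeq2 size factors (0.08).

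In TRA2A and TRA2B the longest retained sequences lay in intron 1, the intron that also holds the poison exon. The alternative exon of TRA2B-205 is at chr3:185931577-185931852 (276 bases, minus strand), and that of TRA2A-203 at chr7:23522354-23522432 (79 bases, minus strand). Their acceptors, printed with AG in capitals and 3 exon bases after it, are shown because the paralogues are nearly alike there, and both AG are preceded by an A.
TRA2B alternative exon acceptor: cctgttctttttctattaAGgtt
TRA2A alternative exon acceptor: aatgttctttttccattaAGgtt
The donors that follow the exons are unlike, taaGTaatt in TRA2B and aaaGTatta in TRA2A. TRA2B-214 keeps 2339 of the 11090 bases of intron 1, next to exon 2 and without the alternative exon, and TRA2B-213 keeps 3268, the alternative exon among them. The TRA2A exon is listed with the same acceptor and other ends in TRA2A-208 (312 bases) and TRA2A-211 (301 bases), which were sorted with TRA2A-203. TRA2A-209 keeps 592 of the 9948 bases of intron 1, from the start of the alternative exon through to exon 2.

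Transcripts of the TRA2 genes were sorted into those without intron 1 sequence, those with the alternative exon and those with a longer stretch of the intron (at least 500 bases). Those left unsorted held 17.5 to 20.1% of TRA2B counts in whole-cell and 17.0 to 19.2% in cytoplasmic libraries. For TRA2A they held 5.77 to 8.66% and 4.65 to 8.1%. The longer stretch made up 16.2, 16.8 and 19.9% of TRA2B in WT-res and 13.6, 14.4 and 16.4% in ΔRS-res whole-cell libraries, and 3.54 to 4.79% in cytoplasmic ones. The alternative exon, in contrast, was higher in the cytoplasm, at 41.6 to 48.5% (median 44.3) against 33.0 to 39.5% (median 33.7). In TRA2A the longer stretch was at 12.9 to 27.8% (median 16.4) in whole-cell and 3.33 to 6.19% (median 4.19) in cytoplasmic RNA, and the alternative exon at 6.59 to 9.89% (median 7.83) and 13.8 to 22.6% (median 17.4). In both genes neither state overlapped between the fractions, and such states were not sorted in genes other than the CLK and TRA2 genes. The differences were -11.8 and 10.1 points in TRA2B and -14.3 and 10.0 points in TRA2A (exact permutation p = 0.005 and adjusted p = 0.0075 for each). Transcripts without intron 1 sequence overlapped, with differences of 1.65 points in TRA2B and 4.35 in TRA2A (exact permutation, adjusted p = 0.429 and 0.276).

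TRA2A varied among libraries more than TRA2B. The 2 highest shares of its longer stretch were those of the libraries labelled replicate 3 of whole-cell RNA, 27.8% in WT-res and 24.9% in ΔRS-res, against 12.9 to 17.2% in the other whole-cell libraries. Summed TRA2A was at 61.9 and 56.8 CPM in those libraries and at 79.0 to 83.9 CPM in the other whole-cell libraries. The coding transcript TRA2A-201 was at 39.0 and 37.1 CPM in them and at 60.5 to 62.6 CPM in the others, while TRA2A-209 was at 15.6 and 12.8 CPM there and at 9.37 to 12.9 CPM. In the cytoplasm TRA2A-201 was at 48.5 and 53.8 CPM in WT-res replicates 1 and 3 and 45.8 CPM in ΔRS-res replicate 3, and at 79.8 to 86.0 CPM in the other 3 libraries, so the lower values did not follow the replicate number there. What the lower libraries share was not tested.

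**Figure D2:**
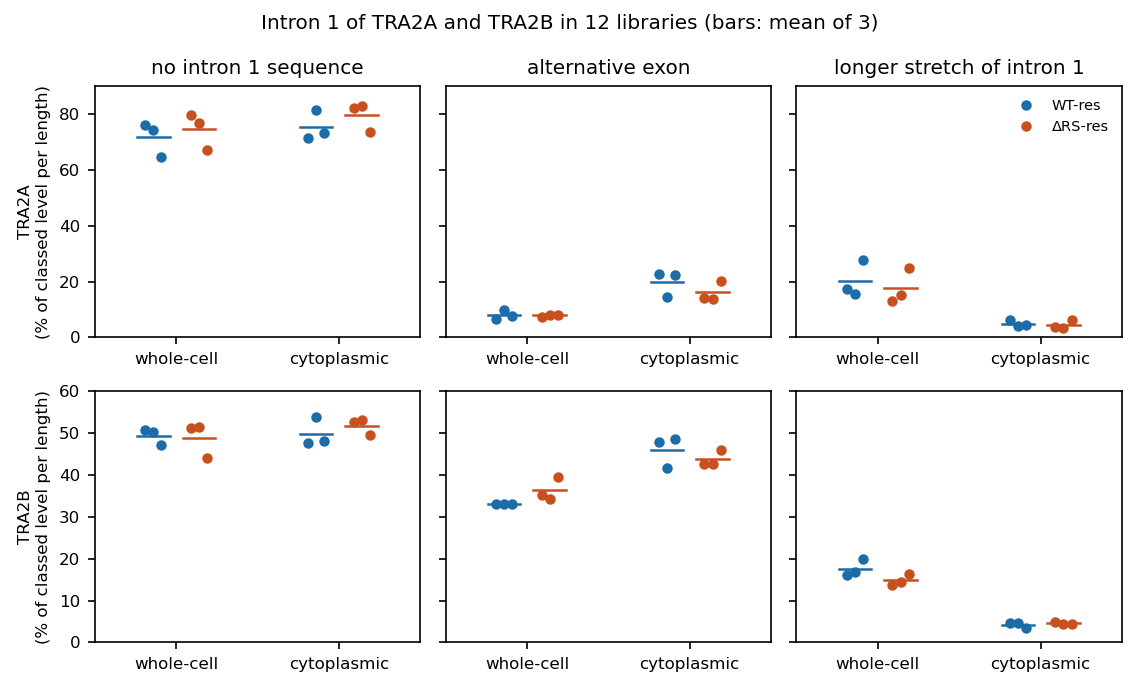
Share of TRA2A (top) and TRA2B (bottom) transcripts with no intron 1 sequence (left), with the alternative exon (middle) and with a longer stretch of intron 1 (right), in percent of the level per length of the transcripts sorted. Points are libraries, replicates 1 to 3 from left to right, and bars are means of 3. The longer stretch is lower and the alternative exon higher in every cytoplasmic library than in any whole-cell library of the same gene.

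Per transcript, TRA2B-205, which carries the poison exon, was at 38.6 to 46.0 CPM in whole-cell libraries and at 67.7 to 76.1 CPM in cytoplasmic ones (log2 change 0.90, SE 0.0542, edgeR adjusted p = 1.1e-06). The coding transcript TRA2B-204 was higher by 0.67 (SE 0.0881), from 72.4 to 90.2 CPM up to 104 to 134 CPM. TRA2B-214 fell from 25.7 to 31.3 CPM to 7.6 to 12.6 CPM (-1.27, SE 0.102) and TRA2B-213 by a log2 change of -1.47 (SE 0.0771). In TRA2A, the poison exon transcript TRA2A-203 was scarce but higher in every cytoplasmic library, at 0.254 to 0.526 CPM against 0.691 to 1.2 CPM (log2 change 1.32, SE 0.207, edgeR adjusted p = 0.000541). Most counts of the alternative exon state came from TRA2A-208, which has no defined coding sequence and was named after its values were seen. It was at 1.33 to 2.94 CPM in whole-cell and 4.51 to 6.09 CPM in cytoplasmic libraries, without overlap (1.51, SE 0.199, edgeR adjusted p = 0.000176). TRA2A-209 went from 9.37 to 15.6 CPM down to 2.97 to 3.90 CPM (-1.67, SE 0.106). The coding transcript TRA2A-201 gave 0.44 (SE 0.212, edgeR adjusted p = 0.127), and with the cell pellet ID as a block it was called (edgeR adjusted p = 0.0301).

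The cytoplasmic kinases SRPK1 and SRPK2 had little intron-retaining RNA. Transcripts of the type retained_intron held 1.28 to 1.74% of SRPK1 counts in whole-cell and 0.606 to 0.992% in cytoplasmic libraries, and 1.80 to 2.85% against 0.784 to 1.08% of SRPK2 counts. The fractions did not overlap in either gene, and how often this holds over all genes was not counted. SRPK1-201, which keeps intron 1 (chr6:35920529-35921043, 515 bases), was at 1.28 to 3.07 CPM and 1.76 to 3.27 CPM and did not pass the test (log2 change 0.17, SE 0.217, edgeR adjusted p = 0.591). It shares 1879 exonic bases with LHFPL5 on the opposite strand, as does the coding transcript SRPK1-204, and the strand setting of the counting is not given in the sources used here. SRPK1-213, with 199 bases of intron 5, was lower by a log2 change of -0.59 (SE 0.163). In SRPK2, SRPK2-207, with 736 bases of intron 9, went from 1.53 to 2.22 CPM to 0.869 to 1.22 CPM (-0.71, SE 0.147), and SRPK2-209, at 0.140 to 0.381 CPM in whole-cell libraries, gave -1.0 (SE 0.35, edgeR adjusted p = 0.0446). That call was lost without any of 8 single libraries.

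SON, whose protein is needed to splice introns with weak sites, also had few such counts, 1.56 to 2.38% in whole-cell and 0.620 to 1.15% in cytoplasmic libraries. Its retained_intron transcripts keep only parts of introns. SON-217 keeps 418 bases of intron 8 (chr21:33569088-33573307) and was at 4.90 to 9.50 CPM and 2.39 to 4.97 CPM, with a log2 change of -0.70 (SE 0.201, edgeR adjusted p = 0.0183) that rose above the threshold without either of 2 whole-cell libraries (edgeR adjusted p = 0.0506 without WT-res replicate 2 and 0.0514 without ΔRS-res replicate 2). SON-219, with 94 bases of the same intron, gave -0.45 (SE 0.25, edgeR adjusted p = 0.185). The coding transcript SON-203 was at 201 to 229 CPM in whole-cell and 244 to 272 CPM in cytoplasmic libraries (0.41, SE 0.0492). SON overlaps DONSON on the opposite strand over 17940 bases, and 168 and 186 bases of SON-217 and SON-219 lie under its exons.

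Intron-retaining and coding transcripts were then compared within each gene and library, so that the value does not depend on scaling between fractions. The class of intron-retaining transcripts fell against the coding class in the cytoplasm in all 8 members that have both classes. CLK1 had the largest change at -2.76 (log2, SE 0.171, edgeR adjusted p = 1.8e-08), which is 6.78-fold lower, followed by TRA2A at -2.07 (SE 0.251, 4.20-fold lower), CLK3 at -1.89 (SE 0.14, 3.70-fold) and CLK4 at -1.79 (SE 0.169, 3.46-fold). TRA2B was at -1.67 (SE 0.11), SRPK2 at -1.28 (SE 0.136), SON at -1.20 (SE 0.141) and SRPK1 at -0.90 (SE 0.128, 1.86-fold lower, edgeR adjusted p = 2.8e-05). Among all 7696 genes with both classes, 70.3% were called lower, with a median of -1.23, so the count for these genes was near what most genes show. The median of the 8 members was -1.73.

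In counts, the retained_intron class made up 49.1 to 60.3% of CLK1 in whole-cell and 13.7 to 18.2% in cytoplasmic libraries. For CLK4 the ranges were 30.5 to 37.7% and 9.44 to 17.6%, for CLK3 29.4 to 32.2% and 8.04 to 14.3%, and for TRA2B 25.1 to 34.6% and 9.35 to 12.4%. TRA2A stood at 12.8 to 26.5% and 3.55 to 6.57%. The fractions did not overlap in any of the 8 genes with such transcripts. How often this holds over all genes was not counted, and 70.3% of 7696 genes were called lower in the class comparison. The shares were highest in CLK1, CLK3, CLK4 and TRA2B and lowest in SON, SRPK1 and SRPK2, and CLK2 has no transcript of the type.

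The shift was called in both lines for each of the 8 members, where 65.5% of genes were called lower in WT-res and 60.1% in ΔRS-res. Its difference between the lines was called for 0% of the 7696 genes by edgeR, and limma called none of the members either. At an unadjusted p under 0.05, SON was the 1 member of 8, with -1.55 (SE 0.199) in WT-res and -0.84 (SE 0.198) in ΔRS-res. CLK1 was at -2.69 (SE 0.24) and -2.83 (SE 0.243), and CLK4 at -1.79 and -1.80. Without the doubted library, the WT-res values of CLK1, TRA2A and SON were -2.49, -1.80 and -1.54, and all 8 members stayed called.

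**Figure D3:**
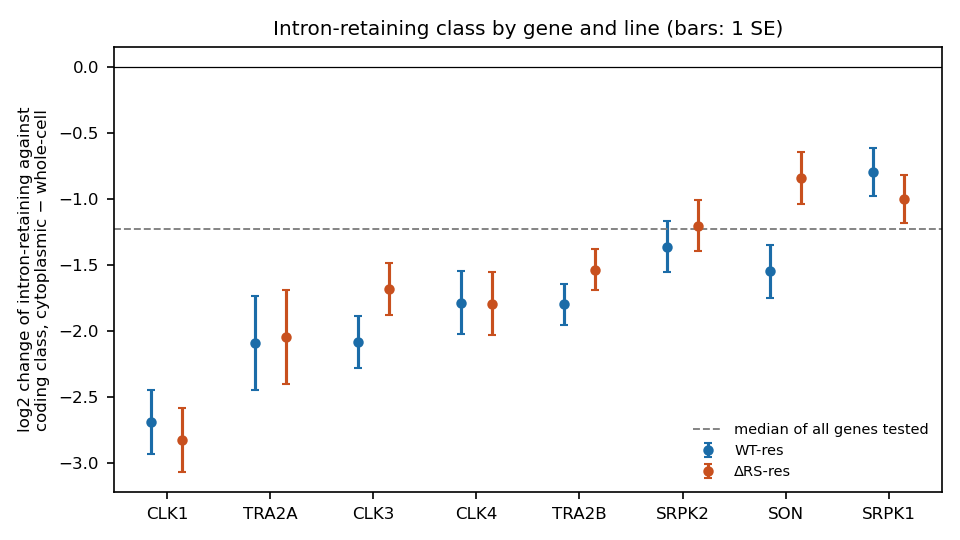
Log2 change of the intron-retaining class against the coding class between cytoplasmic and whole-cell RNA, by gene and line. Bars are 1 SE from the edgeR fit and the dashed line is the median of all 7696 genes tested (-1.23). All points lie below 0, from about CLK1 at -2.83 in ΔRS-res to SRPK1 at -0.79 in WT-res, and CLK1, CLK3, CLK4, TRA2A and TRA2B lie below the dashed line in both lines.

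The type retained_intron also covers transcripts that keep only part of an intron. With the class redefined as transcripts that hold a whole intron of the canonical transcript, whatever their type, and set against coding transcripts that hold none, CLK2 could be tested and gave -2.13 (SE 0.199, edgeR adjusted p = 2.3e-07). CLK1 (-2.78), CLK3 (-2.04), CLK4 (-1.89), TRA2A (-1.66) and TRA2B (-1.15) fell as well. SRPK1, at -0.31 (SE 0.224, edgeR adjusted p = 0.228), did not pass, and SON and SRPK2 have no such transcript. By this definition 73.2% of 4451 genes were called lower.

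Counted transcript by transcript, 47 retained_intron transcripts are listed for the 9 genes and 40 passed the filter on low counts. Of these, 31 were called lower in the cytoplasm and 0 higher, with a median log2 change of -1.24; 52.0% of the retained_intron transcripts of all genes were called lower. The other 9 did not pass the test. All 7 tested in CLK3 and all 4 in TRA2A were lower, against 2 of 6 in CLK4, 5 of 7 in CLK1, 5 of 6 in TRA2B, 4 of 5 in SON, 2 of 3 in SRPK1 and 2 of 2 in SRPK2. The call of TRA2A-206, 1 of the 4, was lost without any of 7 single libraries. Of 46 coding transcripts, 42 were tested, of which 18 were called higher and 4 lower (25.4% and 13.5% of all coding transcripts). All 4 coding transcripts of TRA2B and 5 of the 6 of SON were higher.

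Transcripts listed as substrates of nonsense-mediated decay (NMD), a cytoplasmic process tied to translation, were less uniform. Of 20 tested, 7 were called higher in the cytoplasm and 4 lower, against 14.6% and 9.50% of all such transcripts. SRPK1-208 fell from 1.09 to 1.94 CPM to 0.399 to 0.651 CPM (-1.32, SE 0.173) and CLK4-211 from 0.900 to 1.73 CPM to 0.488 to 0.718 CPM (-0.99, SE 0.18). CLK4-210, which skips exon 4, was at 0.231 to 0.595 CPM and 0.311 to 1.09 CPM (1.19, SE 0.319), a transcript named for its structure. SRPK2-212 gave 0.78 (SE 0.248) and SON-208 1.41 (SE 0.426, edgeR adjusted p = 0.0237), both with overlapping fractions, and CLK3-225, without exon 4, gave -0.35 (SE 0.236, edgeR adjusted p = 0.271). The SRPK2-212 call was lost without any of 7 single libraries (edgeR adjusted p = 0.0539 to 0.0657) and the SON-208 call without any of 3 (0.0543 to 0.0579). In the 10 libraries the study kept, CLK4-210 was not called (edgeR adjusted p = 0.0619). Set against the coding class of the same gene, the NMD class was called lower in 3 of the 8 members that have both and higher in 0 (11.3% and 7.87% of 5589 genes). These were CLK4 (-0.87, SE 0.209), SRPK1 (-0.83, SE 0.118) and CLK3 (-0.52, SE 0.151, edgeR adjusted p = 0.0374), whose call was lost without the doubted library (edgeR adjusted p = 0.0639) and without 9 other single libraries. TRA2B (0.26, SE 0.0998, edgeR adjusted p = 0.107), TRA2A (1.14, SE 0.4) and SON (0.98, SE 0.423) were not called. With the cell pellet ID as a block, in limma on the log2 ratio, CLK3 was not called (adjusted p = 0.147) and SON was called higher (adjusted p = 0.0350).

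**Figure D4:**
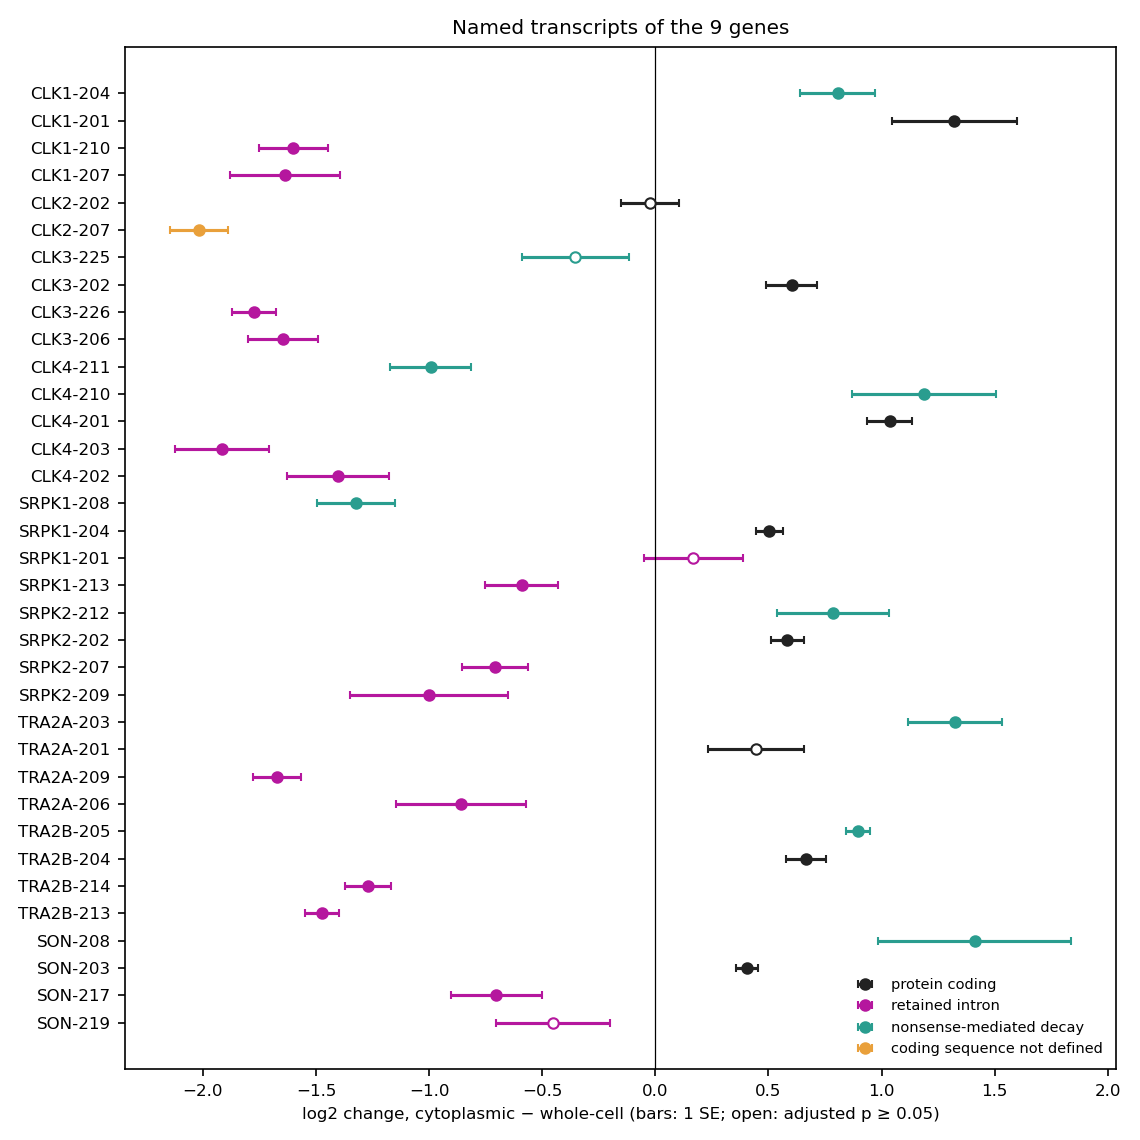
Log2 change between cytoplasmic and whole-cell RNA of the most abundant transcripts of each type, and of CLK2-207 and CLK4-210, named for their structure. Bars are 1 SE from the edgeR fit, colours mark the annotated type, and open points have an adjusted p of 0.05 or more. The retained_intron transcripts other than SRPK1-201 (0.17) lie below 0, and the coding transcripts other than CLK2-202 (-0.02) lie above it.

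Summed over their transcripts, CLK1, CLK3 and CLK4 changed much less than their named coding and intron-retaining transcripts did. This did not hold for every gene. Mean SRPK1 went from 386 CPM in whole-cell to 484 CPM in cytoplasmic libraries, and its coding transcript SRPK1-204 from 359 to 454 CPM. Mean CLK2 went from 54.1 to 40.9 CPM, and its coding transcript CLK2-202 from 21.5 to 18.8 CPM. Gene sums are relative to the scaled total of a library. In bulk RNA, fewer cells that express a gene cannot be told apart from less RNA per cell. Of the 9 genes, 4 were called higher in the cytoplasm and 1 lower, where 23.7% and 31.3% of 26686 genes were. SRPK1 was at 373, 383 and 401 CPM in WT-res and 372, 379 and 406 CPM in ΔRS-res whole-cell libraries, and at 457 to 513 CPM in cytoplasmic ones. All cytoplasmic values were above all whole-cell values (log2 change 0.33, SE 0.0482, edgeR adjusted p = 0.000107). SRPK2, from 87.6 to 100 CPM up to 115 to 132 CPM, gave 0.36 (SE 0.0509), SON, from 619 to 705 CPM up to 749 to 829 CPM, gave 0.20 (SE 0.0488, edgeR adjusted p = 0.00368), and neither overlapped.

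TRA2B was higher by 0.22 (SE 0.0696, edgeR adjusted p = 0.0191), with overlapping ranges (218 to 257 and 249 to 308 CPM). That call was lost without cytoplasmic replicate 2 of either line (0.17 and edgeR adjusted p = 0.0634 without that of WT-res, 0.18 and 0.0667 without that of ΔRS-res). CLK2 was the member called lower. It was at 59.0, 54.2 and 57.6 CPM in WT-res and 49.8, 50.9 and 53.4 CPM in ΔRS-res whole-cell libraries, and at 37.0 to 43.5 CPM in the cytoplasm (-0.40, SE 0.0531, edgeR adjusted p = 4.4e-05). CLK1 (-0.0060, SE 0.142), CLK3 (-0.03, SE 0.0852), CLK4 (-0.02, SE 0.0772) and TRA2A (0.13, SE 0.155) were not called. With DESeq2 size factors the values of CLK1, CLK3 and CLK4 were positive (0.06, 0.05 and 0.05). For these 3 genes the coding transcript named above was called higher and those holding introns 3 and 4 lower.

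Per annotated length (as TPM, shares of a library after division by length), SON was the most abundant in whole-cell RNA at 189 ± 13.4 (SD, n = 6), before TRA2B at 164 ± 16.1 and SRPK1 at 141 ± 6.0. TRA2A followed at 65.3 ± 11, and CLK3 (43.4 ± 5.03), CLK2 (41.2 ± 2.41) and SRPK2 (39.6 ± 2.18) differed from each other by less than the SD of CLK3. CLK1 was at 20.6 ± 8.47 and CLK4 at 11.9 ± 2.11. In the cytoplasm SON (208 ± 12.2) and TRA2B (207 ± 19.4) lay within their spread, SRPK1 was at 167 ± 10.6 and TRA2A at 72.1 ± 14.9, SRPK2 (50.5 ± 3.91) stood above CLK2 (30.0 ± 2.19), and CLK3 was at 44.6 ± 5.46, CLK1 at 21.0 ± 5.32 and CLK4 at 11 ± 0.493.

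**Figure D5:**
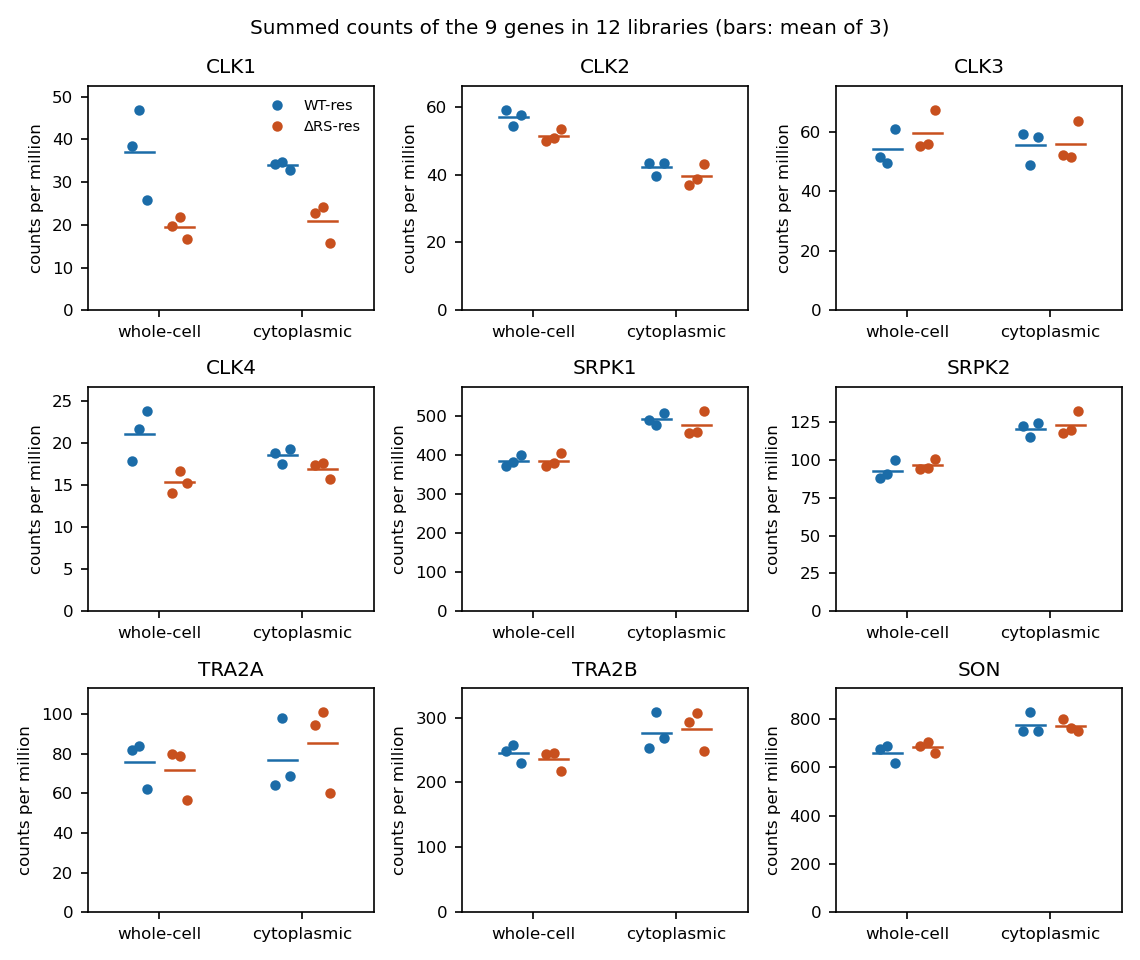
Summed CPM of the 9 genes, by fraction and line. Points are libraries, replicates 1 to 3 from left to right, and bars are means of 3. SRPK1, SRPK2 and SON are higher and CLK2 is lower in every cytoplasmic library than in any whole-cell library, and CLK1 is lower in every ΔRS-res library than in any WT-res library.

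Other genes of the pathway were taken as 2 lists. Of 14 other kinases, phosphatases and import factors that act on SR proteins, 12 were called higher in the cytoplasm as gene sums and 0 lower, with a median log2 change of 0.29, where 23.7% of all genes were called higher and the median of all was -0.06. The largest was PPP1CB, a catalytic subunit of protein phosphatase 1, at 0.72 (SE 0.0615). All genes here means every gene with a mean count above 2, coding or not, and a set of similar abundance was not compared. Of 20 other speckle genes and genes known for retained introns, 11 were lower and 4 higher, with a median of -0.30, where 31.3% of all genes were called lower. These ranged from CCNL2, a cyclin that regulates splicing, at -1.40 (SE 0.0972) to BCLAF1, a speckle-associated RNA-binding protein, at 0.91 (SE 0.129). In the class comparison, 8 of the 9 testable genes of the first list were lower and 1 higher (median -1.22), and 18 of the 19 of the second were lower (median -1.63), beside 70.3% and a median of -1.23 over all genes.

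Between the lines, the comparison for which the lines were made, CLK1 was the member called. It was at 38.4 and 46.9 CPM in WT-res whole-cell replicates 1 and 2, at 25.8 CPM in the doubted library, and at 19.6, 21.9 and 16.7 CPM in ΔRS-res. In the cytoplasm it was at 34.3, 34.7 and 33.0 CPM in WT-res and at 22.8, 24.2 and 15.9 CPM in ΔRS-res. The lines did not overlap in either fraction. In whole-cell RNA the log2 change, ΔRS-res minus WT-res, was -0.93 (SE 0.203, edgeR adjusted p = 0.0442), and -1.14 (SE 0.166, edgeR adjusted p = 0.00346) without the doubted library. In the cytoplasm it was -0.70 (SE 0.202, edgeR adjusted p = 0.156, unadjusted p = 0.00498), and without the doubted library it had the same size and was called (edgeR adjusted p = 0.0324). In all genes 1.92% were called in whole-cell RNA, 3.95% without that library, and 0.0487% in the cytoplasm. The whole-cell call of CLK1 held without the doubted library and without ΔRS-res cytoplasmic replicate 3, and was lost without each of the other 10 libraries in turn. Over those 10 the log2 change lay between -0.73 and -1.03, with edgeR adjusted p between 0.0572 and 0.222.

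CLK1 lies on a stretch of chromosome 2 whose genes were lower in ΔRS-res. Within 5 Mb of it, 55 of 55 genes with a mean count of at least 100 were lower in whole-cell RNA, with a median log2 change of -0.42 (-0.57 without the doubted library), and 54 of 55 in the cytoplasm, with a median of -0.52. The part of the neighbourhood in the CLK1 difference was not tested. CLK4 was at 17.9, 21.6 and 23.8 CPM in WT-res and at 14.1, 16.6 and 15.2 CPM in ΔRS-res whole-cell libraries, without overlap. Its log2 change was -0.46 (SE 0.11, edgeR adjusted p = 0.0552). Of its neighbours within 5 Mb, 22 of 80 were lower in whole-cell RNA, with a median log2 change of 0.07. In the cytoplasm CLK4 gave -0.13 (SE 0.109). With the replicate number as a block, CLK4 was called in whole-cell RNA (edgeR adjusted p = 0.0260), and CLK1 in whole-cell (0.0068) and cytoplasmic RNA (0.0299). The other 7 members had log2 changes between -0.15 and 0.15 in both fractions and edgeR adjusted p of 0.425 or more. The share of CLK1 held in introns 3 and 4 overlapped between the lines in both fractions, and no member's gene sum differed between lines in its change between fractions (0 of 9 at an unadjusted p under 0.05, edgeR).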

How the data were processed

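RNA-seq libraries of whole-cell and cytoplasmic RNA, 3 per group, were analysed from a deposited table of expected counts per transcript. Per the labels and the study's methods, the authors made it with nf-core/rnaseq, Trim Galore, STAR and RSEM on GRCh38 with Ensembl 107 annotation (versions and strand setting are not given in the sources used here). RSEM divides reads that several transcripts share by a model, so a transcript's expected count is an estimate. Counts were rounded, summed per gene or per annotated class, and 99.72% of transcripts were typed with GENCODE 44 on the same build. Library totals were 90333190 to 144628005, and p-values measure the spread between passages of 1 line each.

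edgeR 4.0.16 (R 4.3.3) quasi-likelihood tests with TMM scaling were fitted over all 12 libraries with 4 groups, on features with a mean count above 2, and called at a Benjamini-Hochberg adjusted p below 0.05. Classes of a gene were compared in one fit with a term per library. Fits were run on simulated counts with known changes, drawn independently for each library, so correlation between libraries was not covered. Shares of exon 4 and intron 1 states were tested by exact two-sided permutation of fraction labels within each line. This test was added after the values were seen. It took no account of the shared cell pellet IDs, and a permutation within them, which has fewer arrangements, was not run. The members, lists and tests were chosen with earlier results of these data known. Named transcripts were, per gene, the most abundant coding, the 2 most abundant retained_intron and the most abundant NMD transcript by mean count, with CLK2-207 and CLK4-210 added for their structure. Alternatives used DESeq2 1.42.0, limma 3.58.1, other filters and fewer libraries, the study's 10 among them.

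The sample sheet gives both fractions of a line 1 cell pellet ID per replicate number, while the methods take the cytoplasmic extract from 6 wells combined and the other from 1 well, so a shared number may mean a shared passage and not the same cells. Deviations of same-numbered fractions from group means correlated at -0.164, 0.599 and 0.488 in WT-res and 0.554, 0.484 and 0.801 in ΔRS-res over 14938 genes. Between lines they correlated at 0.569, 0.581 and 0.692 in whole-cell and -0.448, 0.635 and 0.463 in cytoplasmic RNA, so the numbers were read as pairs between lines in whole-cell RNA only. Sequences are GRCh38.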

Additional observations from a re-analysis of the deposited data

How the results depend on the processing

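Of 64 gene, class and transcript values, 1159 of 1268 recomputed values kept their direction and side of the threshold, 65 lost a call, 18 gained one and 26 changed direction. The counts of members or transcripts called between fractions stayed within 1.5 times under the alternatives run. The count of members called between lines in whole-cell RNA was 1. It was 2 with DESeq2 size factors, no filter, filterByExpr, a mean count of at least 10, the DESeq2 Wald test, the replicate block and the study's 10 libraries less the doubted library, 0 with the study's 10 libraries and with whole-cell libraries alone, and 0 to 1 with each library left out in turn. In cytoplasmic RNA the count was 0, against 1 with the replicate block and with the study's threshold, 2 with its 10 libraries less the doubted library, 5 in the 4 cytoplasmic libraries it kept (CLK1, CLK2, CLK3, TRA2A and TRA2B, where 22.1% of genes were called), and 0 to 1 with each library left out. With the replicate block the CLK1 sum had an edgeR adjusted p of 0.0068 in whole-cell and 0.0299 in cytoplasmic RNA, where the numbers did not pair the lines. Between fractions, the pellet block changed no call other than those given for TRA2A-201 and the CLK3 and SON NMD classes. The values that changed direction were never called. The CLK1 sum was 0.061 with DESeq2 size factors or the Wald test, 0.0073 with the replicate block, 0.060 with the study's 10 libraries and -0.108 to 0.0965 with each library left out. CLK3 was 0.048 with either DESeq2 choice and -0.0831 to 0.0231 with each left out. CLK4 was 0.051 with DESeq2 size factors, 0.050 with the Wald test, 0.016 with the study's 10 libraries, 0.055 less the doubted library and -0.0757 to 0.0240 with each left out. CLK2-202 was 0.084 with either DESeq2 choice and -0.111 to 0.0593 with each left out, and the SRPK2 NMD class was -0.0373 to 0.0865. The cause of these changes was not tested.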
